A study of Mus musculus with 64 samples.

Results

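Oxidative phosphorylation is carried out by the subunits of the respiratory chain (complexes I to IV) and of ATP synthase (complex V), which are encoded partly in the nucleus and partly in the mitochondrial genome. The genes were chosen by symbol: the Nduf families a, b, c, s and v of complex I, Sdha to Sdhd of complex II, the Uqcr family and Cyc1 of complex III, the Cox4 to Cox8 families of complex IV and the Atp5 family of complex V, restricted to protein-coding genes, together with the 13 protein-coding genes of the mitochondrial chromosome. Of 55401 genes in the count table, 100 matched (87 nuclear and 13 mitochondrial), and 91 of them had a mean of at least 1 CPM (counts per 1000000 counted reads). These 91 members were 83 nuclear and 8 mitochondrial genes. By complex, the nuclear members numbered 38 in I, 4 in II, 9 in III, 15 in IV and 17 in V, and the mitochondrial members numbered 6 in I, 1 in III and 1 in IV.

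Complexes I and II pass electrons from NADH and succinate to coenzyme Q, complex III passes them on to cytochrome c, and complex IV reduces oxygen. Complexes I, III and IV pump protons, and complex V uses the resulting gradient to make ATP, on which neuronal signalling depends heavily. All complexes except II are built from products of both genomes: the nuclear subunits are made in the cytosol and imported, whereas mitochondrial mRNAs are cut from long transcripts of both strands of the mitochondrial chromosome and translated inside the organelle.

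The libraries came from wild type male C57BL/6J mice, 10 weeks old at injection, which received 1 intraperitoneal injection of psilocybin (3 mg/kg), a serotonergic psychedelic, or saline. Prefrontal cortex (PFC) and hypothalamus were taken from each of 32 mice 3 h or 4 weeks later, which gave 8 groups of 8 polyA-selected RNA-seq libraries, each from 1 region of 1 mouse. Mice of the 4-week groups were older at harvest, so time and age cannot be told apart, and each region was extracted in its own pools, so region and extraction cannot be told apart either.

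Of 64 libraries, 62 held at least 1000000 counted reads and were kept, with totals from 8061033 to 70361839. The libraries left out were hypothalamus saline 3 h replicate 2 (211111 counted reads) and PFC psilocybin 4 weeks replicate 3 (200066 counted reads). The labelled regions matched their markers: the summed level of 8 cortical excitatory neuron markers (such as Slc17a7 and Tbr1) was 2053 to 3819 normalised CPM in PFC and 67.5 to 257 in hypothalamus, and that of 12 hypothalamus markers (such as Pomc, Hcrt and Oxt) was 1.95 to 25.6 in PFC and 464 to 2948 in hypothalamus. The 2948 was a single library of hypothalamus psilocybin 4 weeks, with 959 next in its group. Normalised CPM are CPM scaled by edgeR's TMM factors. One kept library, hypothalamus psilocybin 4 weeks replicate 5, stood apart from all others in the nuclear members, and PFC psilocybin 3 h replicate 7 stood apart from its group in the mitochondrial members; both are described before the comparisons.

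The mitochondrial genes fell into those counted at very high levels and those counted near 0. Highest per length was mt-Co1, the catalytic core of complex IV, with a mean of 17753 CPM or 11491 CPM per kilobase. It was followed in mean CPM by mt-Cytb of complex III (8642) and by the complex I subunits mt-Nd1 (5890), mt-Nd5 (4825), mt-Nd2 (4255), mt-Nd4 (3512) and mt-Nd6 (1528). The remaining member, mt-Nd3, reached 17.5 CPM and was the mitochondrial gene just inside the limit of 1 CPM. Below it lay 5 others: mt-Co2 (0.168 CPM) and mt-Co3 (0.144 CPM) of complex IV, mt-Atp6 (0.118 CPM) and mt-Atp8 (0.0362 CPM) of complex V, and mt-Nd4l (0.0163 CPM) of complex I. These genes are core subunits that every respiring cell uses, and the polycistronic transcripts that hold them also hold the abundant ones.

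Sequence comparison placed the genes counted near 0, except mt-Atp8, beside an annotated nuclear copy. A cluster of mitochondrial pseudogenes lies on chromosome 1, on the minus strand, between positions 24611535 and 24616197 of GRCm38, and the gene table counts its members separately. Gm28661, at chr1:24614885-24615565, was identical to mt-Co2, at chrM:7013-7696, over all 681 aligned bases and had a mean of 85.9 CPM, against 0.168 CPM for mt-Co2 itself. Likewise Gm10925, the copy of mt-Atp6, was identical over 678 bases and had 70.2 CPM, Gm28437, the copy of mt-Co3, was identical over 783 bases and had 75.5 CPM, and Gm10222, the copy of mt-Nd4l, was identical over 294 bases and had 7.66 CPM. These 4 copies were each counted above the mitochondrial gene they match. The copy of mt-Nd3, Gm28438, identical over 342 bases, went the other way, with 7.59 CPM against 17.5 CPM for mt-Nd3. The first 240 bases of the mt-Co2 match are shown, since both genes read the same letter for letter (chrM:7013-7252 on the plus strand and chr1:24615326-24615565 on the minus strand, GRCm38).
mt-Co2 and Gm28661: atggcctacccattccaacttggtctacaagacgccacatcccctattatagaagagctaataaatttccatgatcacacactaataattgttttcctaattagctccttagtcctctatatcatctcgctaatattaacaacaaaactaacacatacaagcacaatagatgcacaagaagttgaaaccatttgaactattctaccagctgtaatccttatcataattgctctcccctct

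Of the abundant genes, mt-Co1 matched a copy over part of its length. Gm29216, at chr1:24615706-24616197 on the minus strand, aligned to bases 1063 to 1545 of mt-Co1, counted from 1 at the first base of the gene, with 482 of 483 bases identical, and had a mean of 61.8 CPM. The single difference was A1066T, with the base of mt-Co1 first. The first 240 bases of the stretch are shown for both genes, with the differing base in capitals (mt-Co1 at chrM:6390-6629 on the plus strand, Gm29216 at chr1:24615949-24616188 on the minus strand).
mt-Co1: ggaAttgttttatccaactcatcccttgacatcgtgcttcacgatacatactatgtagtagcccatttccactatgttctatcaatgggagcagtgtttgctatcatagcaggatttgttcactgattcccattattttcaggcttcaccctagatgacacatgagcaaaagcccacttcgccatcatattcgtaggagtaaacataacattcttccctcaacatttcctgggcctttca
Gm29216: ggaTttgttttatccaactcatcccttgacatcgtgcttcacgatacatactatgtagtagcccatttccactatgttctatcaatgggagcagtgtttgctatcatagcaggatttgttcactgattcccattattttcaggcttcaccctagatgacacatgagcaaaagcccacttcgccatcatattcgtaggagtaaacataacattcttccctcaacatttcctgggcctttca

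Of the 5 mitochondrial genes counted near 0, 4 had their sequence held almost whole by another gene, as did mt-Nd3. Windows of 52 bases, the length of 1 read, were searched for in the transcripts of all other genes (GENCODE vM21, GRCm38). The share of windows found elsewhere was 100% for mt-Co2, 99.9% for mt-Co3, 99.5% for mt-Atp6, 98.8% for mt-Nd4l and 98.0% for mt-Nd3. It was 62.2% for mt-Nd4, where Gm28439 matched the first 876 bases without a difference, 50.1% for mt-Co1, 7.90% for mt-Nd2 and 6.82% for mt-Nd5. None was shared by mt-Nd1, mt-Nd6 and mt-Cytb; of these, mt-Nd6 had the lowest mean, 1528 CPM. The remaining gene near 0, mt-Atp8 (chrM:7766-7969), shared no window with an annotated transcript of another gene. It follows mt-Co2 and overlaps mt-Atp6 (chrM:7927-8607). The search did not cover sequence outside annotated transcripts, such as the stretch between their copies Gm28661 and Gm10925 on chromosome 1. A nuclear copy of mt-Atp8 was thus not looked for there, and its level is uncertain as a measure of the mitochondrial RNA. How reads with several matching places were counted is not given in the sources used here, so the levels of mt-Co2, mt-Co3, mt-Atp6, mt-Nd4l and mt-Nd3 are uncertain as measures of the mitochondrial RNA, and those of mt-Nd4 and mt-Co1 are uncertain over part of the gene. Reads of a nuclear copy and of the mitochondrial gene cannot be told apart in the identical stretches.

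**Figure D1:**
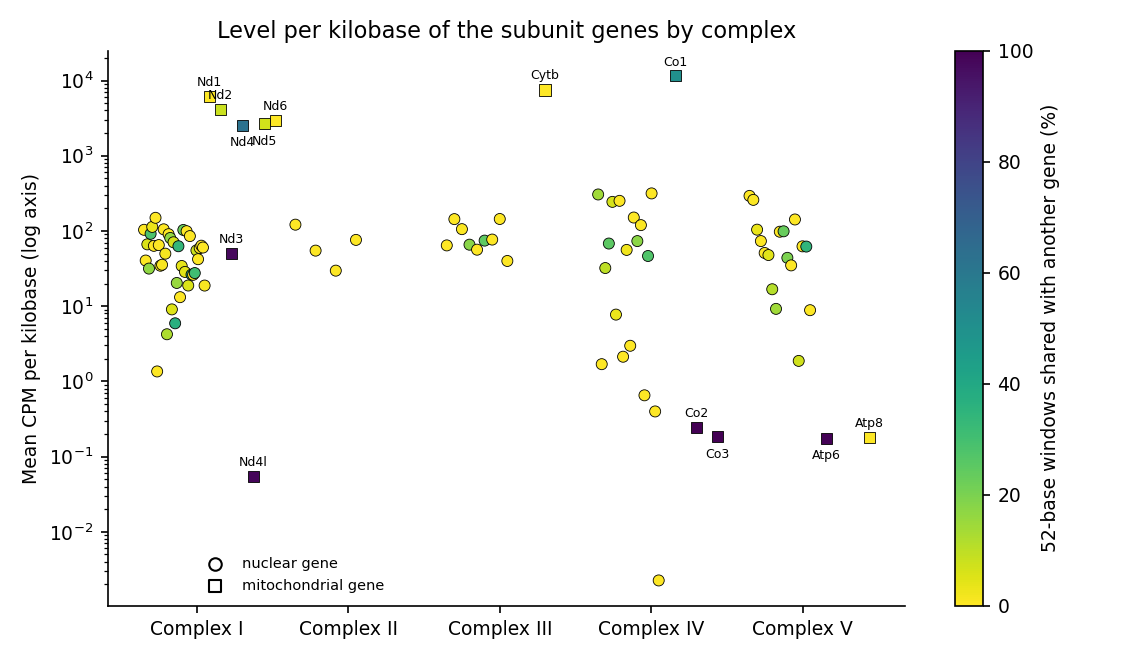
Mean CPM per kilobase (log axis) over 62 libraries for each nuclear (circles) and mitochondrial (squares) subunit gene with any count, by complex, with colour giving the percentage of 52-base windows shared with another gene. Of the 13 mitochondrial genes, 7 lie above 1000 CPM per kilobase, and the 5 with shares of 98.0% or more (Nd3, Nd4l, Co2, Co3 and Atp6) lie far below them. So does Atp8, whose share among annotated transcripts, the only sequence searched, is 0.

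Nuclear members lay well below the abundant mitochondrial ones. Per kilobase, the highest were Cox8a (316 CPM per kilobase) and Cox4i1 (305 CPM per kilobase) of complex IV and Atp5a1, the catalytic-sector alpha subunit of ATP synthase (292.6 CPM per kilobase). Complexes were assigned by symbol, which places Ndufa4 and its paralog Ndufa4l2 in complex I although the Ndufa4 protein is known as a subunit of complex IV. Among the genes assigned to complex I the range ran from Ndufa4 (149.5 CPM per kilobase) down to Ndufa4l2 (1.36 CPM per kilobase), in complex II from the flavoprotein subunit Sdha (121 CPM per kilobase) to the membrane anchor Sdhc (29.7 CPM per kilobase), and in complex III from Uqcrh (144 CPM per kilobase) to Uqcrq (39.9 CPM per kilobase). The lowest members were Cox4i2 in complex IV (1.69 CPM per kilobase) and Atp5l in complex V (1.87 CPM per kilobase). The median of the 8 mitochondrial members was 3521 CPM per kilobase, and the complex medians of the nuclear members lay between 52.5 and 74.4 CPM per kilobase. Of the 83 nuclear members, 40 shared no 52-base window (median level 63.9 CPM per kilobase), 21 shared under 10% (49.9) and 22 shared 10% or more (54.2).

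Among paralogs that fill the same place in a complex, both brain regions used mainly the widely expressed form. Mean CPM was 473 for Cox4i1 and 1.33 for Cox4i2, the isoform known from lung and the member just inside the limit. It was 171 for Cox6a1 and 5.25 for the muscle and heart form Cox6a2, and 178 for Cox6b1 and 2.36 for the testis form Cox6b2. Cox7a2 had 142 CPM, Cox7a2l, known for its part in joining complexes III and IV, had 108 CPM, and the muscle and heart form Cox7a1 had 1.59 CPM. Of the genes for the ring-forming subunit c of ATP synthase, Atp5g3 had 213 CPM, Atp5g1 82.4 CPM and Atp5g2 15.4 CPM. Just outside the limit were Cox7b2 (0.354 CPM), then the muscle form Cox8b (0.143 CPM), Cox8c (0.00103 CPM) and another identifier of Atp5o with no count.

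The members together took a share of each library that differed between the genomes and the regions. Mitochondrial members took a mean of 5.38% of counted reads in PFC (SD 1.35, n = 31 libraries, 2.97 to 7.96%) and 3.90% in hypothalamus (SD 0.478, n = 31, 2.74 to 5.02%). In the same mice the mitochondrial share was higher in PFC than in hypothalamus in 26 of 30, with means of 5.43% and 3.92%. The nuclear share went the other way, higher in PFC in 5 of 30 mice, with means of 0.991% and 1.12%. Mitochondrial ribosomal RNA, which polyA selection captures only in part, was higher in PFC in 17 of 30 mice, with means of 1.01% and 0.914%.

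**Figure D2:**
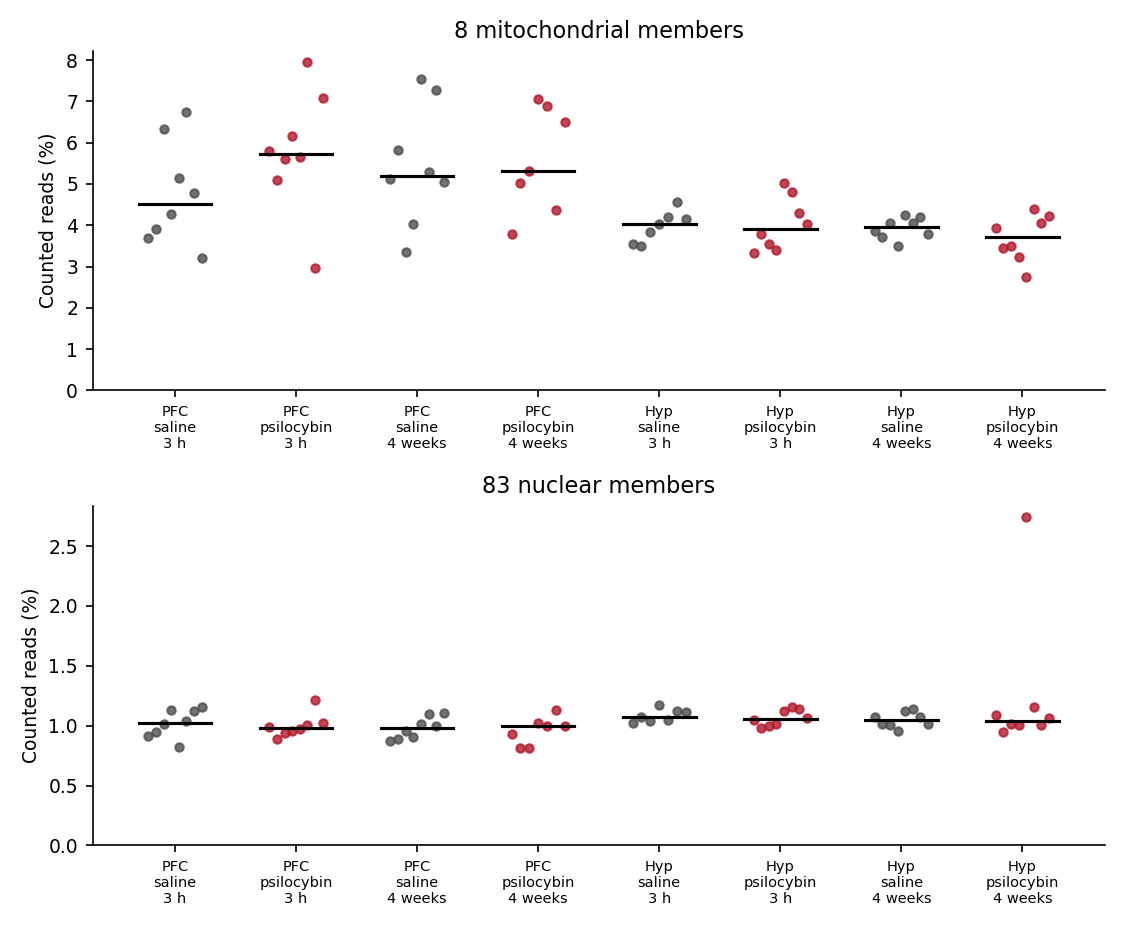
Percentage of counted reads on the 8 mitochondrial (top) and 83 nuclear (bottom) members in each of 62 libraries, by group, with a line at each group median. PFC libraries spread from 2.97 to 7.96% on the mitochondrial members, and hypothalamus psilocybin 4 weeks replicate 5 lies at 2.74% on the nuclear members, above all others.

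Within hypothalamus psilocybin 4 weeks, replicate 5 had 2.74% of its counted reads on the nuclear members, whereas no other kept library exceeded 1.21%. Its level lay above all 7 other libraries of the group for 81 of 83 nuclear members, with a median ratio of 3.55 to the median of the others and ratios from 0.80 to 6.56. Cox6a1 stood at 547 normalised CPM, against at most 136 in the others, Ndufs6, an accessory subunit of complex I, at 242 against at most 54.8, and Atp5k of ATP synthase at 351 against at most 90.4. The 2 members below the others were Ndufs1, the largest subunit of complex I (120 normalised CPM, others 146 to 158), and Uqcrc2, a core subunit of complex III (159 normalised CPM, others 169 to 201). Mitochondrial members moved in both directions in this library: mt-Nd6 (2428 normalised CPM, others 954 to 1358) and mt-Nd3 lay above the other 7, while mt-Nd5 (1628, others 3235 to 4513), mt-Co1 (7110, others 11511 to 15896) and mt-Nd2 lay below them. Reads on cytosolic ribosomal protein genes took 3.56% of this library against at most 1.37% in the other hypothalamus libraries, and the library received a quality weight of 0.0276 from limma, the lowest of the kept libraries. In this library the fifth of the nuclear genes with the shortest exon length lay 1.23 (log2) above the fifth with the longest, relative to the mean of all libraries, and the part of transcript length in its values was not tested.

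PFC psilocybin 3 h replicate 7 differed from its group mainly in the mitochondrial members, all 8 of which lay below the other 7 libraries (median ratio 0.443). For mt-Nd1 it had 3208 normalised CPM against 7471 to 11100 in the others, for mt-Co1 12518 against 20781 to 32846, and for mt-Nd3 2.86 against 18.8 to 28.3. Of the nuclear members 54 lay above and 14 below the others of the group, and Cox8a had 463 normalised CPM against 218 to 281. Its quality weight was 0.120.

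The mitochondrial share moved with a measure of base composition that does not use the members. The median deviation (log2) of the fifth of genes lowest in GC (28.3 to 43.7% GC) minus that of the fifth highest in GC (55.3 to 78.3% GC) was computed in each library over 18841 nuclear genes that are not members, and is called the AT tilt. Mitochondrial members had a median GC content of 36.4%, and nuclear members of 50.3%. Over the 31 PFC libraries the AT tilt and the mitochondrial share gave Pearson's r = 0.715 (permutation p = 1e-05, the smallest 100000 resamples can give, adjusted p = 4e-05 over 4 relations) and Spearman's rho = 0.659 (permutation p = 9e-05, adjusted p = 0.00036). Without the 2 libraries farthest from the median r was 0.632, and within the extraction pools it was 0.856 (n = 15) and 0.862 (n = 16). PFC psilocybin 3 h replicate 7 had the lowest AT tilt in PFC, -0.80, against -0.04 to 0.29 in the other libraries of its group. In PFC saline 3 h the AT tilt ran from -0.49 to 0.25 with a median of -0.15, below the median of 0.12 in PFC psilocybin 3 h.

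In hypothalamus the same relation gave r = 0.402 (permutation p = 0.0324, adjusted p = 0.0324) and rho = 0.116 (permutation p = 0.531, adjusted p = 0.531), and r was 0.0292 without replicate 5 of the psilocybin 4 weeks group and 0.0739 without the 2 libraries farthest from the median, so the relation over both pools together did not hold without them. Within the pools r was 0.600 (n = 15, the pool without replicate 5) and 0.800 (n = 16), the latter 0.316 without replicate 5. The nuclear share fell with rising AT tilt in PFC (r = -0.679, permutation p = 4e-05, adjusted p = 8e-05; rho = -0.519, permutation p = 0.00314, adjusted p = 0.00628; r = -0.524 without the 2 farthest libraries; r = -0.394 and -0.869 within pools). In hypothalamus the nuclear share gave r = -0.888 (permutation p = 0.00024, adjusted p = 0.00032) and rho = -0.441 (permutation p = 0.0143, adjusted p = 0.0191), with r = -0.441 without replicate 5, r = -0.376 without the 2 farthest libraries and r = -0.300 and -0.942 within pools, the latter -0.380 without replicate 5.

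**Figure D3:**
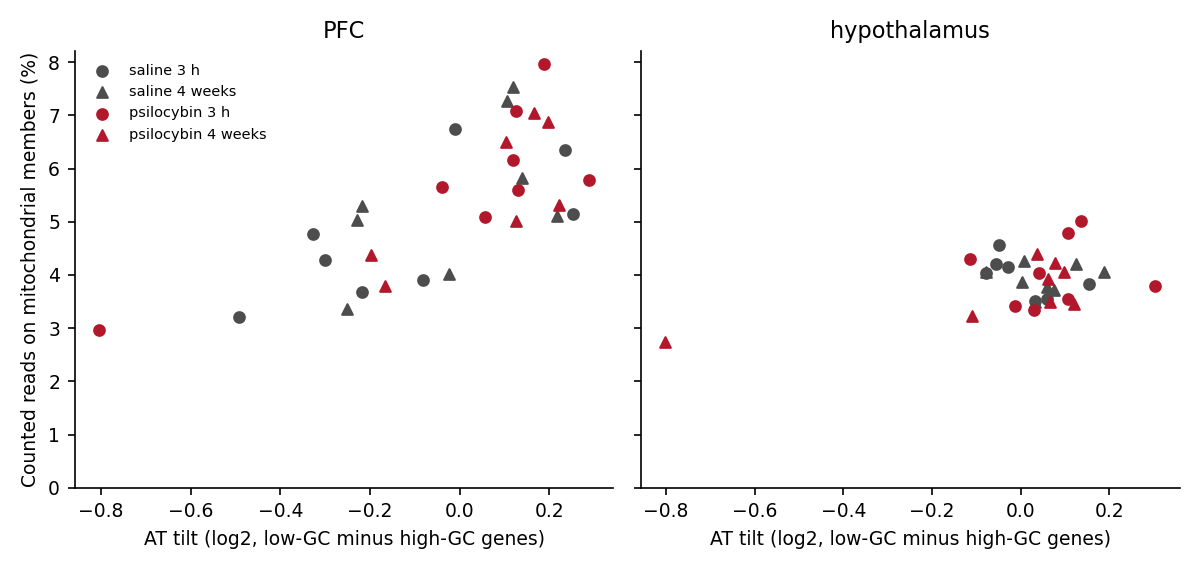
Percentage of counted reads on the mitochondrial members against the AT tilt of each library (log2, low-GC minus high-GC genes), in PFC (left, 31 libraries) and hypothalamus (right, 31 libraries), with colour for treatment and symbol for time. The share rises with the tilt in PFC (r = 0.715), and in hypothalamus 1 library lies alone at a tilt of -0.80.

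Whether psilocybin changed the subunit genes after 3 h was asked first in PFC. By the edgeR quasi-likelihood test no member was called (adjusted p under 0.05), and 0.0105% of the 18971 tested genes were. The 8 mitochondrial members were all higher on average in the psilocybin group, with a median log2 fold change of 0.36, and 6 of them had an unadjusted p under 0.05. The 83 nuclear members had a median log2 fold change of -0.01, with 36 positive, 47 negative and 0 at an unadjusted p under 0.05. DESeq2 called 0 members of either genome.

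Among the mitochondrial members, mt-Nd1 ranged from 3435 to 9150 normalised CPM (median 5488) in PFC saline 3 h and from 3208 to 11100 (median 8035) in PFC psilocybin 3 h. The log2 fold change was 0.40 (SE 0.17, 95% interval 0.07 to 0.72, edgeR adjusted p = 0.641). For mt-Co1 the saline libraries ran from 13421 to 27684 (median 19023) and the psilocybin libraries from 12518 to 32846 (median 23630), a log2 fold change of 0.28 (SE 0.14, adjusted p = 0.687). The groups overlapped in both genes: replicate 7 of the psilocybin group was lower than every saline library, and the highest saline library lay above the psilocybin median.

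For the other mitochondrial members the differences were of similar size. The log2 fold change was 0.48 for mt-Nd2 (SE 0.20), 0.70 for mt-Nd3 (SE 0.34), 0.25 for mt-Nd4 (SE 0.13), 0.34 for mt-Nd5 (SE 0.17) and 0.38 for mt-Nd6 (SE 0.18), and it was 0.21 for mt-Cytb (SE 0.12), with edgeR adjusted p-values from 0.641 to 0.732. Mitochondrial mRNAs come from shared transcripts and these values from the same libraries, so the 8 genes are not independent of each other. Of the nuclear members with the smallest p, Atp5s, which encodes a factor associated with ATP synthase, had a log2 fold change of 0.18 (SE 0.10, adjusted p = 0.737), Uqcrc2 one of -0.10 (SE 0.05, adjusted p = 0.693) and Cox7a1 one of -0.51 (SE 0.27, adjusted p = 0.727).

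The call on the mitochondrial members depended on the weighting of libraries. Under limma's voom with quality weights and the animal as a block, all 8 were called higher, with a median log2 fold change of 0.57 and adjusted p-values from 0.00793 to 0.0193. That fit called 5.14% of all tested genes higher, and from the nuclear members it called Atp5s (0.36, SE 0.10, limma adjusted p = 0.0178). Without the weights, voom called none (median log2 fold change 0.35), edgeR without replicate 7 called none (0.48), and with an offset for gene length and GC content the edgeR median was 0.15, with 7 of 8 positive. The library weights had a median of 0.553 (0.275 to 1.45) in PFC saline 3 h and of 1.10 (0.120 to 1.79) in PFC psilocybin 3 h. The part of the AT tilt and of the weights in the difference was not tested.

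At 4 weeks the PFC mitochondrial members differed little between treatments. No member was called, and 0% of all tested genes were called by edgeR. The median log2 fold change was 0.03 for the mitochondrial and -0.05 for the nuclear members, of which 74 of 83 were negative, and 0 of either genome had an unadjusted p under 0.05. The mitochondrial share was 3.36 to 7.53% (median 5.20%) in PFC saline 4 weeks and 3.8 to 7.05% (median 5.31%) in PFC psilocybin 4 weeks, so that the groups overlapped throughout. The largest mitochondrial value was that of mt-Nd3, with a log2 fold change of 0.23 (SE 0.35, 95% interval -0.45 to 0.90).

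In hypothalamus at 3 h no member was called either (0% of all tested genes), and 0 had an unadjusted p under 0.05. Medians were 0.02 for the mitochondrial and -0.01 for the nuclear members on the log2 scale. mt-Co1 ran from 12835 to 16440 normalised CPM (median 14923) in the 7 saline libraries and from 11693 to 18940 (median 13904) in the 8 psilocybin libraries, which enclosed them. Its log2 fold change was 0.03, with a 95% interval from -0.25 to 0.30.

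At 4 weeks in hypothalamus 81 of 83 nuclear members were higher on average in the psilocybin group, with a median log2 fold change of 0.34, and 62 of them had an unadjusted p under 0.05. None was called (0% of all tested genes in edgeR; DESeq2 called 13 of all tested genes and 0 members). Ndufb10, an accessory subunit of complex I, ran from 92.0 to 114.8 normalised CPM (median 102) in the saline group and from 94.4 to 440.3 (median 103) in the psilocybin group, where the second-highest library had 111.7. The medians of the groups were thus nearly equal, and replicate 5 alone lay outside the saline range by a wide margin. Without replicate 5 the nuclear median was -0.01, with 30 of 83 positive. The mitochondrial members had a median of -0.04, with mt-Nd5 lowest at -0.19 (SE 0.17) and mt-Nd6 highest at 0.11 (SE 0.18), the genes in which replicate 5 lay farthest below and above its group. Without replicate 5 the mitochondrial median was -0.03.

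Tests of the differences between these responses called no member. The response at 3 h in PFC minus that in hypothalamus had a median log2 value of 0.32 for the mitochondrial and 0.00 for the nuclear members (0% of all tested genes called). For mt-Nd1 it was 0.38 (SE 0.24, edgeR adjusted p = 1). The response in PFC at 3 h minus that at 4 weeks had a median of 0.33 for the mitochondrial and 0.05 for the nuclear members (0% called). Unadjusted p-values under 0.05 were found for 0 of 8 mitochondrial members in both tests, and for 1 and 0 of 83 nuclear members. Without PFC psilocybin 3 h replicate 7 the mitochondrial medians were 0.44 and 0.45, with 6 of 8 at an unadjusted p under 0.05 in each test, and again no member was called. That library was singled out for its low mitochondrial members, so leaving it out had to raise these values, and no conclusion is drawn from the rise. PFC saline 3 h replicate 8, with 3.20% of its counted reads on the mitochondrial members, was kept.

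Between the regions, 7 of 8 mitochondrial members were higher in PFC than in hypothalamus of saline mice in edgeR, and of the 83 nuclear members 20 were higher and 8 lower. For all tested genes the shares were 35.5% higher and 31.0% lower, so neither count of nuclear members, nor their sum, exceeded the background. DESeq2 called 16 nuclear members higher and 10 lower (33.1% and 34.1% of all tested genes). Both regions came from the same mice, which this fit does not use. Voom with quality weights and the animal as a block called 31 nuclear members higher and 22 lower (37.9% and 35.7% of all tested genes), and edgeR without hypothalamus psilocybin 4 weeks replicate 5 called 31 and 15, so the count depends on the fit. The median log2 difference was 0.50 for the mitochondrial members, 0.07 for the nuclear members and 0.04 for all tested genes. In bulk tissue, fewer cells of a type and less RNA per cell cannot be told apart.

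Of the mitochondrial members, mt-Cytb ran from 7002 to 14738 normalised CPM (median 10447) in the 16 PFC saline libraries and from 5845 to 7808 (median 6592) in the 15 hypothalamus saline libraries. All 15 saline mice with both libraries had more in PFC, although the ranges overlapped. The log2 difference was 0.66 (SE 0.08, edgeR adjusted p = 3.50e-10). It was 0.60 for mt-Nd4 (SE 0.09), 0.58 for mt-Co1 (SE 0.10), 0.57 for mt-Nd6 (SE 0.13), 0.44 for mt-Nd1 (SE 0.12), 0.44 for mt-Nd2 (SE 0.14) and 0.42 for mt-Nd5 (SE 0.12).

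The exception, mt-Nd3, ran from 3.96 to 31.6 normalised CPM (median 10.2) in PFC saline libraries and from 12.7 to 25.0 (median 17.7) in hypothalamus saline libraries, so that PFC held both the lowest and the highest values. Its log2 difference was -0.24 (edgeR adjusted p = 0.39), and voom with quality weights called it lower in PFC (-0.54). This is the member with 98.0% of its windows in another gene. In the nuclear copy of mt-Co2, Gm28661, the PFC saline 4 weeks libraries ran from 14.8 to 290.8 normalised CPM (median 114) and the hypothalamus saline 4 weeks libraries from 15.01 to 93.7 (median 43.7), again with overlap.

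Set against the same backgrounds of 35.5% higher and 31.0% lower, and with no test between complexes, 9 of the 15 nuclear members of complex IV were higher in PFC and 1 was lower. The counts were 7 and 3 of 38 in complex I, 0 and 2 of 4 in complex II, 1 and 0 of 9 in complex III and 3 and 2 of 17 in complex V. Without hypothalamus psilocybin 4 weeks replicate 5 they were 10 and 1 in complex IV, 11 and 9 in complex I, 1 and 2 in complex II, 3 and 1 in complex III and 6 and 2 in complex V. The shares over all tested genes in that fit were 37.6% higher and 32.8% lower. Cox6a1 ran from 158.9 to 298 normalised CPM (median 213) in PFC and from 95.7 to 150.5 (median 117) in hypothalamus, with no overlap between the saline libraries. Its log2 difference was 0.82 (SE 0.13, edgeR adjusted p = 2.07e-07). Cox8a, a small accessory subunit of complex IV, ran from 176 to 336 (median 239.6) in PFC and from 104.6 to 179.8 (median 137) in hypothalamus, overlapping narrowly, and was higher in PFC in 15 of 15 saline mice. Its log2 difference was 0.80 (SE 0.12, adjusted p = 2.08e-08).

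Other complex IV members higher in PFC were Cox6c (0.42), Cox6b1 (0.34), the regulatory subunit isoforms Cox4i1 (0.34) and Cox4i2 (0.58), Cox7a2 (0.27), Cox7b (0.24) and Cox5a (0.21), all as log2 differences. Only Cox6b2 was lower (-0.52, SE 0.19). In complex I the higher members included Ndufb9 (0.54, SE 0.10) and Ndufb4 (0.37, SE 0.10), accessory subunits of the membrane arm, and the lower ones were Ndufs7 (-0.31, SE 0.12), Ndufc2 (-0.29, SE 0.10) and Ndufb2 (-0.23, SE 0.09).

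Sdha, the succinate-oxidising subunit that complex II shares with the citric acid cycle, was lower in PFC. It ran from 409 to 493 normalised CPM (median 450.7) in PFC and from 520.0 to 579.9 (median 534) in hypothalamus, without overlap, and was so in 15 of 15 saline mice. The log2 difference was -0.26 (SE 0.03, edgeR adjusted p = 9.37e-12). Sdhc was lower too (-0.14, SE 0.05). Atp5s was lower in 15 of 15 saline mice (log2 difference -0.31, SE 0.07), with ranges that overlapped (12.2 to 19.6 in PFC and 16.2 to 22.9 in hypothalamus). Sdha and Cox6a1 were the only nuclear members of 83 without overlap between the regions, and 0 of 8 mitochondrial members were without it, against 19.3% of all tested genes.

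**Figure D4:**
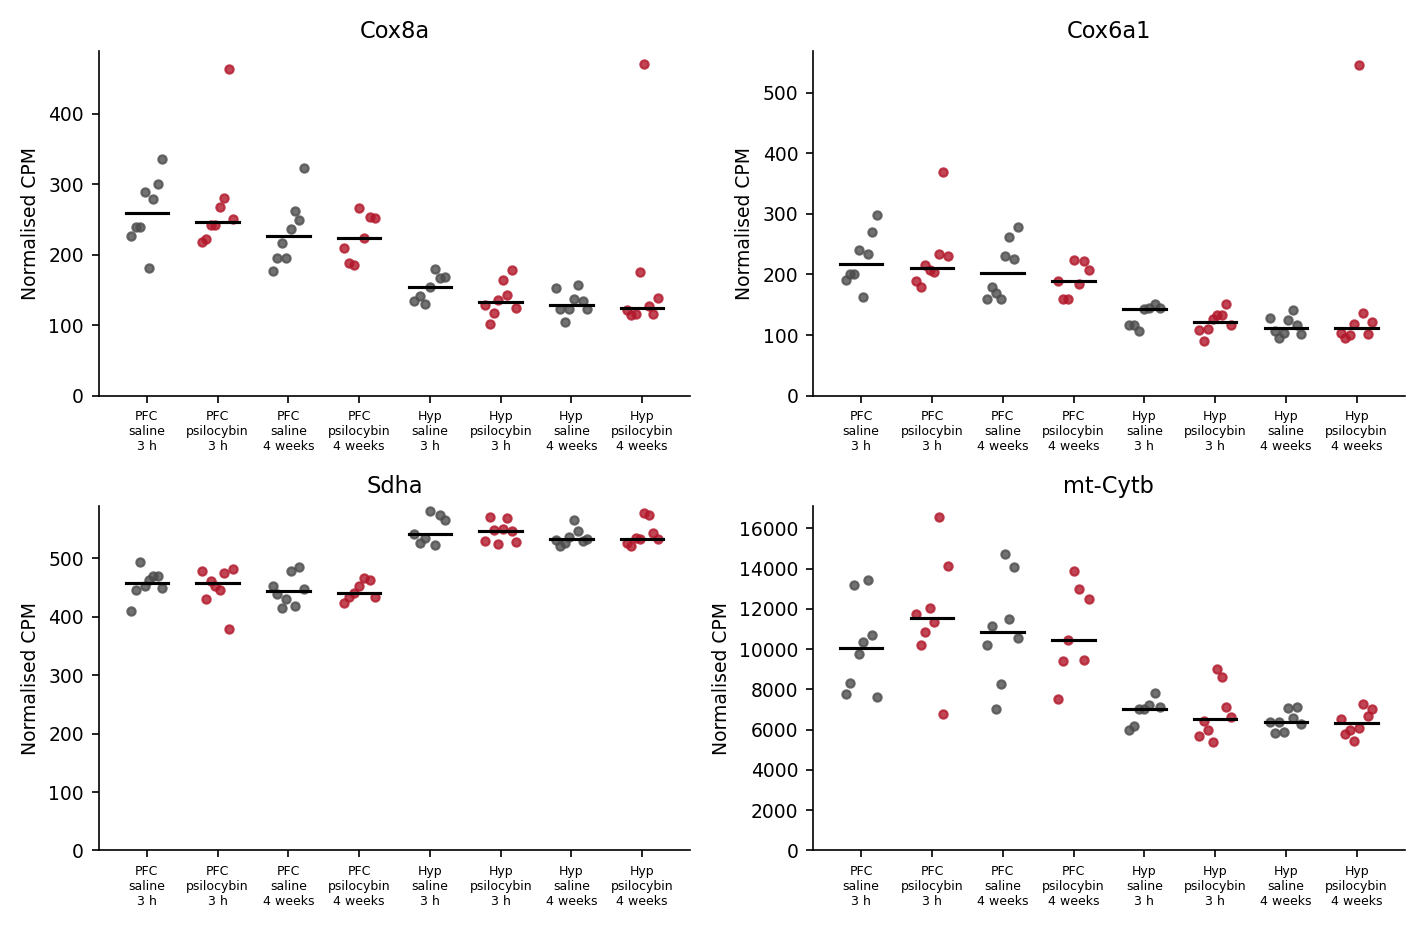
Normalised CPM of Cox8a, Cox6a1, Sdha and mt-Cytb in each of 62 libraries, by group, with a line at each group median. Sdha separates the regions in saline libraries (409 to 493 in PFC and 520.0 to 579.9 in hypothalamus), and the single high hypothalamus values of Cox8a (470.7) and Cox6a1 (547) belong to psilocybin 4 weeks replicate 5.

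The psilocybin mice offered the same regional comparison in other animals. With replicate 5 of hypothalamus psilocybin 4 weeks included, 5 nuclear members were higher in PFC and 26 lower, with a background of 34.3% higher and 33.3% lower over all tested genes. Without that library 30 were higher and 17 lower, with backgrounds of 37.3% and 33.7%. In saline mice leaving it out removes no library, but it alters the shared estimate of spread, the normalisation and the hypothalamus pool term. It also alters the set of tested genes (18890 in place of 18971). The saline comparison then gave 31 higher and 15 lower, with backgrounds of 37.6% and 32.8%, so that the share of nuclear members called higher was then near the background. In those fits 38 nuclear members were called in both treatments, all in the same direction, against 12095 of 18890 tested genes called in both, 12087 of them in the same direction. The mitochondrial members gave 7 higher and 0 lower in the psilocybin mice, with log2 differences from 0.67 for mt-Nd1 to 0.78 for mt-Nd2 among the 7 and 0.17 for mt-Nd3. Their median was 0.72 with and without replicate 5 and 0.78 without PFC psilocybin 3 h replicate 7, with 7 called each time, and that fit called 5 nuclear members higher and 28 lower (34.6% and 33.6% of all tested genes). Sdha was lower in PFC in 15 of 15 psilocybin mice (-0.28, SE 0.03), and Cox8a (0.69, SE 0.12) and Cox6a1 (0.58, SE 0.13) were higher in 14 of 15. Atp5s, lower in all saline mice, was lower in 11 of 15.

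**Figure D5:**
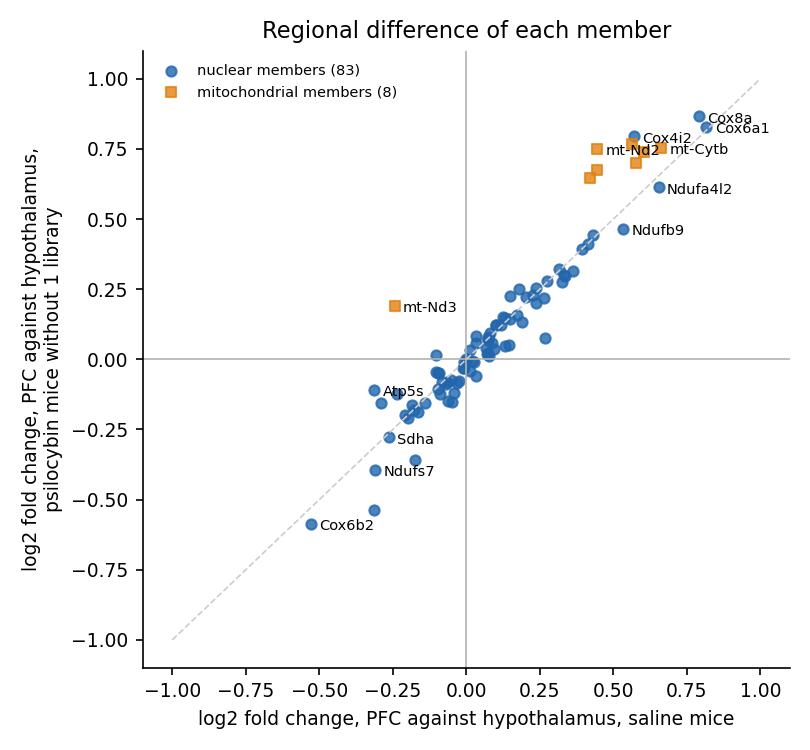
Log2 fold change, PFC against hypothalamus, of the 91 members in saline mice (x axis) and in psilocybin mice (y axis), both from fits without hypothalamus psilocybin 4 weeks replicate 5, with a dashed line of equality. Cox8a and Cox6a1 lie at the upper right among the nuclear members, Cox6b2 at the lower left, and 7 of 8 mitochondrial members lie on the positive side of both axes.

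Markers of several cell types differed between the regions in the same libraries. The summed normalised CPM of 8 neuron markers was 5966 to 9291 in PFC and 3748 to 4900 in hypothalamus, that of 8 oligodendrocyte markers 2367 to 6929 and 6203 to 11194, that of 8 astrocyte markers 4833 to 9285 and 2899 to 4959, and that of 8 microglia markers 436.5 to 824 and 286 to 506. The lists of thalamus markers (141 to 239 in PFC, 766 to 1563 in hypothalamus), endothelial and mural markers (200.1 to 369 and 109 to 282) and choroid plexus markers (5.47 to 62.6 and 75.5 to 1311, where the 1311 was a single saline 4 weeks library with 152 next in its group) also differed in median level between the regions, the endothelial ranges with overlap. So did those of muscle markers (50.8 to 91.6, median 65.7, in PFC and 23.1 to 136, median 37.0, in hypothalamus, where the 136 was a single library). Only 3 of the 8 muscle markers had a mean of at least 1 CPM in each region. The muscle list includes Pvalb, and the thalamus list includes Slc17a6 and Calb2. Whether these sums come from the tissues the lists are named for was not tested. The ranges of striatum (174 to 1689 and 171 to 679) and blood markers (82.6 to 954 and 70.6 to 746) overlapped. The part of cell composition in the regional differences of the members was not tested.

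Promoters are shown for the nuclear members with the clearest regional differences. Of the 83 nuclear members, 65 matched a RefSeq promoter (250 bases before to 50 after the start, GRCm38.p6) by symbol. Searched on both strands, the NRF-1 motif GCGCATGCG was found in 12.3% of the members and 1.95% of 27025 genes, the ETS core CCGGAA in 38.5% and 16.7%, and the YY1 motif AAGATGGC in 13.8% and 3.19%. At least 1 of them was found in 53.8% of the members and 20.3% of genes. These motifs are those of factors known to act on respiratory genes. In the sequences, capitals mark the motif matches: Cox8a (chr19:7217567-7217866, minus strand) held 3 ETS cores, Cox6a1 (chr5:115348909-115349208, minus strand) 2 overlapping NRF-1 matches, 1 on each strand, and an ETS core, and Sdha (chr13:74350191-74350490, minus strand) none of these letters.
Cox8a: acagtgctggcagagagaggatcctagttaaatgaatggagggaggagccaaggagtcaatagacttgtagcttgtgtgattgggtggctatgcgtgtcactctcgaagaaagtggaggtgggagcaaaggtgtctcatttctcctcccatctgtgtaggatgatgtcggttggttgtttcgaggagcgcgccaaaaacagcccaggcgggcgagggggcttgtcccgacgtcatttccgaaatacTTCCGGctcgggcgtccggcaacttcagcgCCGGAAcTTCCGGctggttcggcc
Cox6a1: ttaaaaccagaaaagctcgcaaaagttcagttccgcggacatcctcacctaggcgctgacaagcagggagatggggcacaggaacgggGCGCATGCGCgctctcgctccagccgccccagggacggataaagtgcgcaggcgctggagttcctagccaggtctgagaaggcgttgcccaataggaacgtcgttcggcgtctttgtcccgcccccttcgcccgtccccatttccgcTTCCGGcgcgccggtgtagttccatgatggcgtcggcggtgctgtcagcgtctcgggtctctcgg
Sdha: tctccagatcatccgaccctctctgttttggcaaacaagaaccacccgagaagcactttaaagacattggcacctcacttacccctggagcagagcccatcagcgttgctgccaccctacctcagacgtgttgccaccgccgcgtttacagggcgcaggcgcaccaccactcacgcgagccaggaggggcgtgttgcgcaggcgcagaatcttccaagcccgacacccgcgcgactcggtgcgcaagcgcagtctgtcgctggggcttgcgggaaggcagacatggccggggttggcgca

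Time after injection was compared within each treatment. In PFC saline mice no member was called between 4 weeks and 3 h (4.72% of all tested genes called), and 0 of 91 members had an unadjusted p under 0.05. The nuclear members had a median log2 fold change of -0.09, with 78 of 83 negative, and the mitochondrial members one of 0.18, with 8 of 8 positive. The median AT tilt was -0.15 in PFC saline 3 h and 0.04 in PFC saline 4 weeks. In PFC psilocybin 3 h and 4 weeks it was 0.12 and 0.13. The part of the tilt in the time differences was not tested. In PFC psilocybin mice 0 members were called (5.96% of all tested genes), and medians were -0.15 for the nuclear members, 79 of 83 negative, and -0.15 for the mitochondrial ones, 8 of 8 negative. The difference between the treatments in this change is the test of the PFC response at 3 h minus that at 4 weeks given above, which called none.

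The smallest p in the psilocybin mice belonged to Sdhd, a membrane anchor of complex II. It ran from 89.6 to 115 normalised CPM (median 101.9) in PFC psilocybin 3 h and from 77.9 to 99.7 (median 91.9) in PFC psilocybin 4 weeks, with overlap. The log2 fold change was -0.20 (SE 0.07, edgeR adjusted p = 0.0758). Of the 83 nuclear members, 2 had an unadjusted p under 0.05, Sdhd and Ndufc2 (-0.32, SE 0.15), both lower at 4 weeks. Hypothalamus psilocybin 4 weeks replicate 5 is in neither group, but it enters this comparison through the shared spread, the normalisation and the set of tested genes. Without it 10 nuclear members were called lower (5.43% of all tested genes), and voom with quality weights called 33 lower (9.60% of all tested genes). DESeq2 called 0.

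In hypothalamus saline mice 0 members were called (0.685% of all tested genes), and medians were -0.07 for the nuclear and -0.05 for the mitochondrial members, with 0 at an unadjusted p under 0.05. In hypothalamus psilocybin mice 0 members were called (1.16% of all tested genes). There the nuclear median was 0.28 with 37 members at an unadjusted p under 0.05, all higher, and it was -0.05 without replicate 5. DESeq2 called 0 members in both.

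Genes that serve the same pathway without being subunits were described by the same tests. No gene of any list was called in the 4 treatment comparisons. The regional counts are read against the shares of 35.5% higher and 31.0% lower over all tested genes, and no list was tested as a whole. Between the regions in saline mice, 16 of 43 tested assembly factors were higher in PFC and 7 lower (median log2 difference 0.06; 10 and 10 with a median of -0.02 in psilocybin mice), among them Cox10, which makes heme for complex IV (0.51, SE 0.06), the complex IV factor Coa7 (0.35) and the complex I factor Ecsit (0.38), and on the lower side the complex III factor Uqcc1 (-0.42, SE 0.03), the complex I factor Tmem126b (-0.35) and the complex II factor Sdhaf3 (-0.41). Of 25 genes of mitochondrial transcription and biogenesis, 4 were higher and 5 lower (median -0.04): the mitochondrial DNA polymerase Polg (0.59), Tfb2m (0.28) and Yy1 (0.24) were higher, and Esrrg (-0.84), the mitochondrial topoisomerase Top1mt (-0.54) and the DNA-packaging factor Tfam (-0.15) were lower.

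Mitochondrial RNA processing and stability had 5 of 19 genes higher and 5 lower (median 0.01). Fastk (0.68, SE 0.06), Fastkd5 (0.59) and the tRNA-end nuclease Elac2 (0.33) were higher in PFC, and Lrpprc, which stabilises mitochondrial mRNAs (-0.44, SE 0.04), Fastkd1 (-0.58) and Grsf1 (-0.14) were lower. Of 16 citric acid cycle genes 6 were higher and 2 lower (median 0.08), with Pdha1 (0.31) and Dlst (0.26) against Ogdh (-0.18) and Suclg1 (-0.15). Of 26 genes for cytochrome c, coenzyme Q, carriers and uncouplers 8 were higher and 8 lower, including the coenzyme Q genes Coq4 (0.57), Coq8a (0.45) and Coq2 (0.34) on one side and Coq3 (-0.42), the channel Vdac3 (-0.29) and the uncoupling protein Ucp2 (-1.74, SE 0.11) on the other. Over time, where 4.72% of all tested genes were called in PFC saline and 5.96% in PFC psilocybin mice, the called genes were Atpaf1 (0.32), Slc25a27 (0.23), Nrf1 (-0.26) and Ucp2 (-0.54) in PFC saline mice, and Slc25a27 (0.37), Yy1 (-0.19), Fastkd5 (-0.80) and Ucp2 (-0.89) in PFC psilocybin mice.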

How the data were processed

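The authors prepared TruSeq Stranded mRNA libraries (polyA selection, paired 52-base reads), aligned them with STAR 2.7.2b to GRCm38 and counted reads per GENCODE vM25 gene with featureCounts 1.6.2 (bcl2fastq 2.20.0 before); the deposited values are raw counts. Per the study's methods only reads with both ends on the same strand were counted; whether the library's strand was used, and how reads with several matching places were treated, is not given in the sources used here. Libraries under 1000000 counted reads were left out, and genes were filtered with filterByExpr of edgeR (18971 kept). The edgeR quasi-likelihood test (edgeR 4.0.16, R 4.3.3; TMM; Benjamini-Hochberg) fitted 8 groups with the extraction pool centred within region, over all genes. Voom with quality weights and the animal as a block (limma 3.58.1), which follows the authors' design except for the libraries (the authors also left out 1 library enriched in wound healing and immune genes, which the sources used here do not name and which was not left out), and DESeq2 1.42.0 were alternatives. Symbols came from GENCODE vM21 by gene identifier. Named genes were all 13 mitochondrial genes, the nuclear members with the smallest p in each direction per comparison (5 where over 10 were called, 3 where none was), the isoform groups, the extremes per complex and at the CPM limit, and up to 3 called genes per direction from each pathway list (1 of them is not reported here); the other members of complexes I and IV called between regions, and those named for the libraries that stood apart, were chosen after their values were seen. Scripts were tested on simulated data. Python 3.11.15, numpy 2.4.6, pandas 2.3.3, scipy 1.17.1 and matplotlib 3.10.9 were used.

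The members and lists were chosen with earlier results of these data known, and the AT tilt, the search for nuclear copies, the voom fit without weights and the length and GC offset were added after seeing the data. Replicate numbers are cage numbers in the labels. The correlation of same-numbered libraries' deviations from their group means averaged 0.0806 in PFC (lowest of 45 pairs -0.312) and 0.0723 in hypothalamus (lowest -0.213). With the extraction pool removed as well, it averaged -0.0415 in PFC and -0.0236 in hypothalamus.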

Additional observations from a re-analysis of the deposited data

Results flagged for a closer look

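Single libraries lay far from the other libraries of their group in 9 of 88 group values tested with Dixon's criterion, where chance alone gives about 1 in 20 for a single value. The values of a library are not independent of each other, so a library that stands apart can give several flags. In PFC psilocybin 3 h all 5 belonged to replicate 7: its percentage of counted reads on nuclear members was the highest (1.21%), its log2 ratio of mitochondrial to nuclear members was the lowest (1.29), and it had the lowest normalised CPM of mt-Nd1 (3208), mt-Nd2 (2114) and mt-Nd3 (2.86). In hypothalamus psilocybin 4 weeks all 4 belonged to replicate 5: the highest percentage on nuclear members (2.74%), the lowest log2 ratio of mitochondrial to nuclear members (-0.00105), the lowest normalised CPM of mt-Nd5 (1628) and the highest of mt-Nd6 (2428).

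The library of PFC psilocybin 4 weeks replicate 3, left out for its low total, had 4.07% of its counted reads on mitochondrial ribosomal RNA. The saline libraries had at most 1.49%, and the kept psilocybin libraries at most 1.65%. The 10 most counted genes of the left-out library held 42.5% of its counted reads.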

How the results depend on the processing

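Of 341 alternative values for counts and shares, 324 stayed within 1.5 times the reported value or within its spread, and 17 did not. These are totals: without hypothalamus psilocybin 4 weeks replicate 5 the balance of nuclear region calls in psilocybin mice turned from 5 higher and 26 lower to 30 higher and 17 lower, and the nuclear median at 4 weeks in hypothalamus went from 0.34 to -0.01. Voom with quality weights called 8 mitochondrial members and 1 nuclear member in PFC at 3 h (6.49% of all tested genes), 53 nuclear members between regions in saline mice (73.5%; 28 and 66.4% in the reported fit) and 50 in psilocybin mice (74.6%; 31 and 67.6%), and over time 33 nuclear members in PFC psilocybin (19.1%), 1 in hypothalamus saline (7.25%) and 2 in hypothalamus psilocybin mice (3.29%). Without hypothalamus psilocybin 4 weeks replicate 5 the region called 46 nuclear members in saline (70.4% of all tested genes) and 47 in psilocybin mice (71.0%), and time called 1 in PFC saline (8.32%) and 10 in PFC psilocybin mice (11.3%); without PFC psilocybin 3 h replicate 7 time called 0 in both, as reported. Fits on only the groups compared called 44 nuclear members between regions in saline mice (71.2%) and 1 over time in hypothalamus saline mice (3.98%). In PFC psilocybin mice over time, the length offset called 2 nuclear members (7.35%), the length offset with the replicate block 1 (6.37%), and the length and GC offset 4 nuclear and 1 mitochondrial (10.9%). The cause was not tested. Of the 28 nuclear region calls, between 20 (no filter on low counts) and 28 were kept.

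When the replicate block was fitted and the pool was not, the region called 30 nuclear members in saline mice (66.1%), all 28 among them, and changed no other count by over 1.5 times. With group means removed, the mean correlation of same-numbered libraries was 0.0806 in PFC and 0.0723 in hypothalamus. Same-numbered libraries of a region also share an extraction pool. With the pool removed as well, the mean was -0.0415 in PFC and -0.0236 in hypothalamus, so no positive pairing remained on average.

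Cox4i2, the member of lowest mean (1.33 CPM), has the fewest reads behind its values. Intervals give the uncertainty of a mean difference, from a spread estimated for each gene over all 8 groups together. In the edgeR comparisons of regions, libraries of the same mouse were treated as independent.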
